A study of Mus musculus with 6 samples.

Results

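The Ms4a family was followed through the leukocytes of mouse kidneys by single-cell RNA sequencing. The 7 genes described here are Ms4a1, Ms4a4b, Ms4a4c, Ms4a6b, Ms4a6c, Ms4a6d, and Ms4a7, which were taken by their symbols from the 19 Ms4a genes among the 28208 genes shared by all count matrices. Raw counts of unique molecular identifiers (UMIs, tags that mark single captured RNA molecules) were read for each of them. After removal of called doublets, 45667 cells were kept, of which 18800 were leukocytes and 17343 fell in a leukocyte class that could be named from marker genes outside the family.

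The data come from 6 kidneys, 2 per group, with 1 library per kidney. Naive kidneys were untransplanted kidneys of male B6 mice aged 10 to 12 weeks. Rejecting and tolerized kidneys were taken on day 15 after BALB/c kidneys had been placed into bilaterally nephrectomized male B6 recipients, and their age label is 6 to 7 weeks. Rejecting recipients were untreated. Tolerized recipients also received BALB/c splenocytes treated with ethylenecarbodiimide (ECDI-SP, donor cells made tolerogenic by a chemical crosslinker) intravenously 7 days before and 1 day after transplantation. All transplanted kidneys therefore shared the strain mismatch, the surgery, and the time point. Whether a cell came from the donor or the recipient was not analysed here. Naive kidneys differed from them in strain, age, CellRanger processing, and gene list, so that their values are given without a test.

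MS4A proteins span the membrane with several helices and are found mostly on hematopoietic cells, where they lie beside immune receptors. MS4A1 is CD20, the B cell protein targeted by depleting antibodies, and MS4A2 is the beta chain of the high-affinity IgE receptor of mast cells and basophils. The remaining genes are less well described. Ms4a4b is known from T cells, Ms4a6b has been linked to the costimulatory receptor GITR, and Ms4a7 is used as a macrophage gene.

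All 7 genes lie in 1 cluster on chromosome 19. In GRCm38 (GENCODE M21) they span chr19:11249675-11604849, or 355 kb, in the order Ms4a1, Ms4a7, Ms4a4c, Ms4a4b, Ms4a6c, Ms4a6b, and Ms4a6d, with other Ms4a genes between them. The 4 genes in the middle (Ms4a4c, Ms4a4b, Ms4a6c, and Ms4a6b) are read from the plus strand and the other 3 from the minus strand. Each longest coding transcript has 7 exons, apart from 8 exons in Ms4a6b. The counting kit reads the 3′ end of transcripts. Of the 451 windows of 50 bases in the last 500 bases of the longest coding transcript, 11.8% in Ms4a4c also occur in Ms4a4b and 13.7% in Ms4a6c also occur in Ms4a6b or other genes, so that reads from these windows could not be assigned to 1 gene. No window from the last 500 bases of the other 5 genes occurred in another gene. Ms4a4b and Ms4a6b nevertheless hold shared windows elsewhere in their transcripts, as named above.

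RefSeq promoter windows (GRCm38.p6, 250 bases before to 50 after the start site) were matched for 5 genes, namely Ms4a4b, Ms4a4c, Ms4a6b, Ms4a6c, and Ms4a7, and not for Ms4a1 and Ms4a6d. The start sites are those of RefSeq and can lie inside the longer GENCODE gene. The 4 windows of the neighboring plus-strand genes are shown because these genes lie side by side, yet Ms4a4b had its highest level in lymphoid cells and the other 3 in classical monocyte-like cells. They lie at chr19:11443308-11443607 (Ms4a4b), chr19:11407411-11407710 (Ms4a4c), chr19:11518309-11518608 (Ms4a6b), and chr19:11469118-11469417 (Ms4a6c), all on the plus strand. Capitals mark the letters GGAAGT, the core bound by ETS factors, on either strand (ACTTCC on the other).
Ms4a4b: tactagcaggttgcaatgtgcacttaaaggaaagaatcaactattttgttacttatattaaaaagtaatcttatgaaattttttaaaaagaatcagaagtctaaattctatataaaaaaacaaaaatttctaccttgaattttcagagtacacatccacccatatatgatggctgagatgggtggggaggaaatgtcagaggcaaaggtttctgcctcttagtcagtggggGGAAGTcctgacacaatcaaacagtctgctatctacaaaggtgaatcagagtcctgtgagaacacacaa
Ms4a4c: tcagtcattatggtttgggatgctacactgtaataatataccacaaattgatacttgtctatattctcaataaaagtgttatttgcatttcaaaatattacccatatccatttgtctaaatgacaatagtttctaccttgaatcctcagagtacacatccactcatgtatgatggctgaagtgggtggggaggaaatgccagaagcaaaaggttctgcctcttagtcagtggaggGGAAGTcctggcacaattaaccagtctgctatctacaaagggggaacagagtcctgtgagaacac
Ms4a6b: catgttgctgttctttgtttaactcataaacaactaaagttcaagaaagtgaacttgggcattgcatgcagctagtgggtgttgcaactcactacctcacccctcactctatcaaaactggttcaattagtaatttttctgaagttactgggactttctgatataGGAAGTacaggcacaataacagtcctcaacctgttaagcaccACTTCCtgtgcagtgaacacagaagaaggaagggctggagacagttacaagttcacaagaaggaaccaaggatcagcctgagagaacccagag
Ms4a6c: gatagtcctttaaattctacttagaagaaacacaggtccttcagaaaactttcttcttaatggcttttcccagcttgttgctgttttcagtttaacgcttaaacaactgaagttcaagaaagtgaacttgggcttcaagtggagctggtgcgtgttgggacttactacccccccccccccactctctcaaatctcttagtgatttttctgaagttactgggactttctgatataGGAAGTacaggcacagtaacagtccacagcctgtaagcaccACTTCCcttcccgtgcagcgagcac

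The windows of Ms4a4b and Ms4a4c were identical at 227 of 309 aligned positions (73.5%) when aligned from end to end, and the other pairs of the 5 genes stood between 48.0% and 52.2%. That value depends on the RefSeq start sites. In the best local alignment, chosen after seeing the data, the windows of Ms4a6b and Ms4a6c were identical at 182 of 221 positions (82.4%), with an offset of 73 bases between their first aligned bases, and those of Ms4a4b and Ms4a4c at 162 of 183 (88.5%), with an offset of 3. No other pair had a local alignment longer than 78 positions. GGAAGT was found in all 4 printed windows, at position -19 from the start site in Ms4a4b, -15 in Ms4a4c, -85 and -43 in Ms4a6b, and -16 and 26 in Ms4a6c. Ms4a7 held it at -15 in 1 of its 2 windows. For comparison, 23.8% of all 32851 RefSeq promoter windows of this length hold these 6 letters. Of 3 other motifs searched on both strands, the interferon-stimulated core GAAA, any 2 bases, GAAA (interferon regulatory factors, in 3.44% of all windows) and TTGCNNAA (C/EBP factors, in 10.8%) had no match in the windows of the 5 genes, and TGTGGT (RUNX factors, in 16.8%) had 1 match, at -211 in Ms4a4c. The motifs overlap in no printed window. These are matches of letters and say nothing of binding.

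Most UMIs of each gene came from leukocytes. In the 4 transplanted kidneys, between 98.1% (Ms4a1) and 99.2% (Ms4a4c and Ms4a6c) of all UMIs of a gene lay in leukocytes. B cell-like cells held 90.7% of the UMIs of Ms4a1, and macrophage-like cells held 86.4% of those of Ms4a7. Of those of Ms4a4b, 63.8% lay in T cell-like cells and 8.11% in NK cell-like cells.

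Several features of the libraries stand before the results. The 6 libraries held 8532 to 13378 barcodes with median UMIs per kept cell between 2535 (rejecting kidney 1) and 7294 (tolerized kidney 2), and pairs of libraries shared 0 to 111 barcodes. Naive kidneys held few leukocytes in the named classes, with 29 and 77 B cell-like cells, 9 and 12 NK cell-like cells, and at most 10 cells in any of the other classes described here. T cell-like cells of rejecting kidney 1 stood apart. Of its 3010 T cell-like cells, 993 and 748 lay in 2 clusters that held 40 and 31 cells of rejecting kidney 2 and at most 28 of either tolerized kidney, and the median UMI count of its T cell-like cells was 1237 against 2699 to 4924 in the other 3. B cell-like cells of tolerized kidney 2 lay mostly (183 of 219) in a cluster that also held 27 and 77 of the naive B cell-like cells, whereas most of those of the other 3 transplanted kidneys lay in another cluster (386 of 389, 469 of 473, and 389 of 407). Levels and fold changes that rest mainly on these cells are also given without them, a choice made after seeing the data.

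Levels are given in CPM, the counts of a gene scaled by the total UMIs of all cells of a class in a kidney. Values are listed for rejecting kidneys 1 and 2 and then tolerized kidneys 1 and 2. As a level cannot be compared between genes of different length and 3′ end, the order of classes is given within each gene. Fewer transcripts per cell and a smaller share of expressing cells cannot be told apart in such sums. The classes were set from other marker genes, but the same cells carry both, so that differences between classes are described without a test.

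Ms4a1 was a B cell gene in these kidneys. In B cell-like cells its level was 737, 794, 839, and 825 CPM, and in the naive kidneys it was 618 and 645 CPM, from 29 and 77 cells. Among the named classes, dendritic cell-like cells came next with a median of 5.27 CPM. A cluster that could not be named, with 110 cells of rejecting kidney 2 and tolerized kidney 2, lay between, at 66.4 to 73.2 CPM. In the coarser clustering (resolution 0.8), an unnamed cluster with 56 and 67 cells of the same kidneys was led by Jchain, Iglc1, and Ighg3. Plasma cell markers matched that cluster best. NK cell-like cells held no UMI of Ms4a1 in any kidney, and 3 UMIs would have given 12.7, 9.09, 6.05, and 4.68 CPM there. Ms4a1 was found in 66.3%, 66.2%, 88.2%, and 84.0% of B cell-like cells, whose median depth was 2165, 2087, 3703, and 3840 UMIs. In proximal tubule-like cells, which should lack it, the share was 0.835%, 0.093%, 0.148%, and 0.0885% at median depths of 5410, 4325, 7011, and 11152 UMIs. With every cell thinned to 1000 UMIs, which left 278, 403, 387, and 213 cells, the shares in B cell-like cells were 48.6%, 47.6%, 53.0%, and 45.1%, so that the groups, which were apart before thinning, overlapped. Without the cluster that holds the naive cells, which left 36 cells in tolerized kidney 2, the levels were 741, 792, 844, and 623 CPM and the thinned shares 49.1%, 47.4%, 52.4%, and 24.2%.

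Ms4a4b, a gene of T and NK cells, was highest among the 9 named classes in NK cell-like cells at 1730.4, 1633, 1591, and 1843 CPM. In T cell-like cells it stood at 1003, 1023, 966, and 841 CPM. The ranges of these 2 classes did not overlap, and both lay far above classical monocyte-like cells, which came next with a median of 48.0 CPM. A cluster led by S1pr1, Il7r, Lef1, and Tcf7 that could not be named stood above the NK range, with a median of 1936 CPM (1854 to 2257 CPM). It was best matched by the T cell markers, but its cells are in neither the T cell-like class nor the gates below. Without the clusters of low UMI count, T cell-like cells had 785, 1022, 967, and 837 CPM. The level was unequal among T cells, as shown in the plot of levels within classes. T cell-like cells with Cd8a or Cd8b1 UMIs but no Cd4 or Foxp3 had 1173, 1133, 1195, and 1153 CPM. Cells with Cd4 alone had 613, 642, 789, and 477 CPM, and cells with Foxp3, the regulatory T cell factor, had 215, 398, 323, and 298 CPM. The order of these 3 gates held in each of the 4 kidneys, and their ranges did not overlap. This was also so without the clusters of low UMI count, where the 3 gates spanned 962 to 1199, 477 to 790.3, and 205 to 398 CPM. Among T cell clusters, the one led by Gzmk and Ccl5 had 1674, 1445, 2294, and 2084 CPM (the last from 10 cells), and the one led by Foxp3, Tnfrsf4, and Ikzf2 had 228, 446, 321, and 278 CPM.

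Ms4a4c had another pattern than its neighbor Ms4a4b. It was highest in classical monocyte-like cells (Ly6c2+, Ccr2+ blood monocytes) at 979, 1266, 809, and 957 CPM. Dendritic cell-like cells followed with 378, 561, 270.3, and 395 CPM, and patrolling monocyte-like cells with 479, 414, 318, and 304 CPM. B cell-like cells also carried it, at 265, 312, 259.7, and 190.1 CPM, as did macrophage/monocyte-like cells at 306, 304, 194, and 185 CPM. Without the cluster that holds the naive cells, the B cell-like value of tolerized kidney 2 was 124 CPM. These 4 classes overlapped their neighbors in the order. Macrophage-like cells were lower at 118, 123, 119, and 64.8 CPM, and T cell-like cells stood at 16.3 to 19.97 CPM.

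Ms4a6b spanned both lymphoid and myeloid cells. Classical monocyte-like cells had its highest level, 732, 910.2, 714, and 892 CPM. T cell-like cells followed at 474, 468, 431, and 457 CPM and overlapped patrolling monocyte-like cells at 587, 492, 433, and 388 CPM. NK cell-like cells had less, 156, 148, 121, and 137 CPM, and B cell-like cells had 46.4, 41.8, 28.9, and 23.0 CPM. Unlike Ms4a4b, the level of Ms4a6b did not separate the T cell gates. It was 479, 464, 429, and 447 CPM in Cd8+ cells, 462, 462, 391, and 372 CPM in Cd4+ cells, and 376, 521, 453, and 560.4 CPM in Foxp3+ cells, so that the ranges overlapped. Without the clusters of low UMI count they overlapped as well, and Cd8+ cells had 406 to 464 CPM.

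Ms4a6c was a myeloid gene. Its level was 1285, 1712, 1638, and 1422 CPM in classical monocyte-like cells and 1190.1, 1212, 1207, and 881 CPM in patrolling monocyte-like cells. Macrophage-like cells had 788, 913, 916, and 686 CPM, macrophage/monocyte-like cells 719.9, 780.1, 731, and 625 CPM, and dendritic cell-like cells 431, 618, 508, and 511 CPM. Classical monocyte-like cells stood above all other classes in range. T, NK, and B cell-like cells had medians of 20.9, 23.2, and 17.8 CPM. Within T cell-like cells, those with Cd4 alone had 76.2, 67.5, 88.7, and 62.2 CPM and those with Cd8 alone 34.4, 13.2, 11.3, and 5.03 CPM, without overlap. Without the clusters of low UMI count, Cd8+ cells had 23.2, 12.98, 11.45, and 4.99 CPM.

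Ms4a6d had its highest median in macrophage-like cells (324, 322, 319, and 206 CPM), but these overlapped classical monocyte-like cells (266, 508, 340.5, and 233 CPM) and macrophage/monocyte-like cells (329.9, 320.3, 269, and 201 CPM). No order among these 3 classes can be read from 4 kidneys. Patrolling monocyte-like cells had 203, 158, 153, and 109 CPM, and T cell-like cells 10.1 to 17.5 CPM.

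Ms4a7 was mainly a macrophage gene. Macrophage-like cells had 816, 887, 851, and 914 CPM, and macrophage/monocyte-like cells, a cluster with markers of both, had 154, 213, 228, and 131 CPM. Dendritic cell-like and classical monocyte-like cells followed with medians of 16.8 and 16.4 CPM. The other 5 of the 9 classes had medians below 6 CPM. Outside these 9, the few cycling macrophage-like cells had 236, 346, 577, and 219 CPM (that of tolerized kidney 1 from 6 cells). Ms4a7 was found in 81.1%, 86.4%, 87.0%, and 82.1% of macrophage-like cells at median depths of 8443, 8354, 14245, and 10991 UMIs. In proximal tubule-like cells the shares were 4.49%, 1.86%, 1.09%, and 0.487% at the depths given above.

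Macrophage-like cells were not uniform for the family. The cluster led by Slc40a1, Vcam1, and Spic, genes of iron export, adhesion, and red pulp-type macrophages, had 953, 1030.5, 1106, and 1151 CPM of Ms4a7. The cluster led by the chemokine genes Ccl7, Ccl2, and Ccl8 had 698, 867, 764, and 751 CPM, less in every kidney. Ms4a4c had the reverse order, with 68.8, 82.8, 47.2, and 38.3 CPM in the former and 174.9, 133, 152, and 96.7 CPM in the latter.

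**Figure D1:**
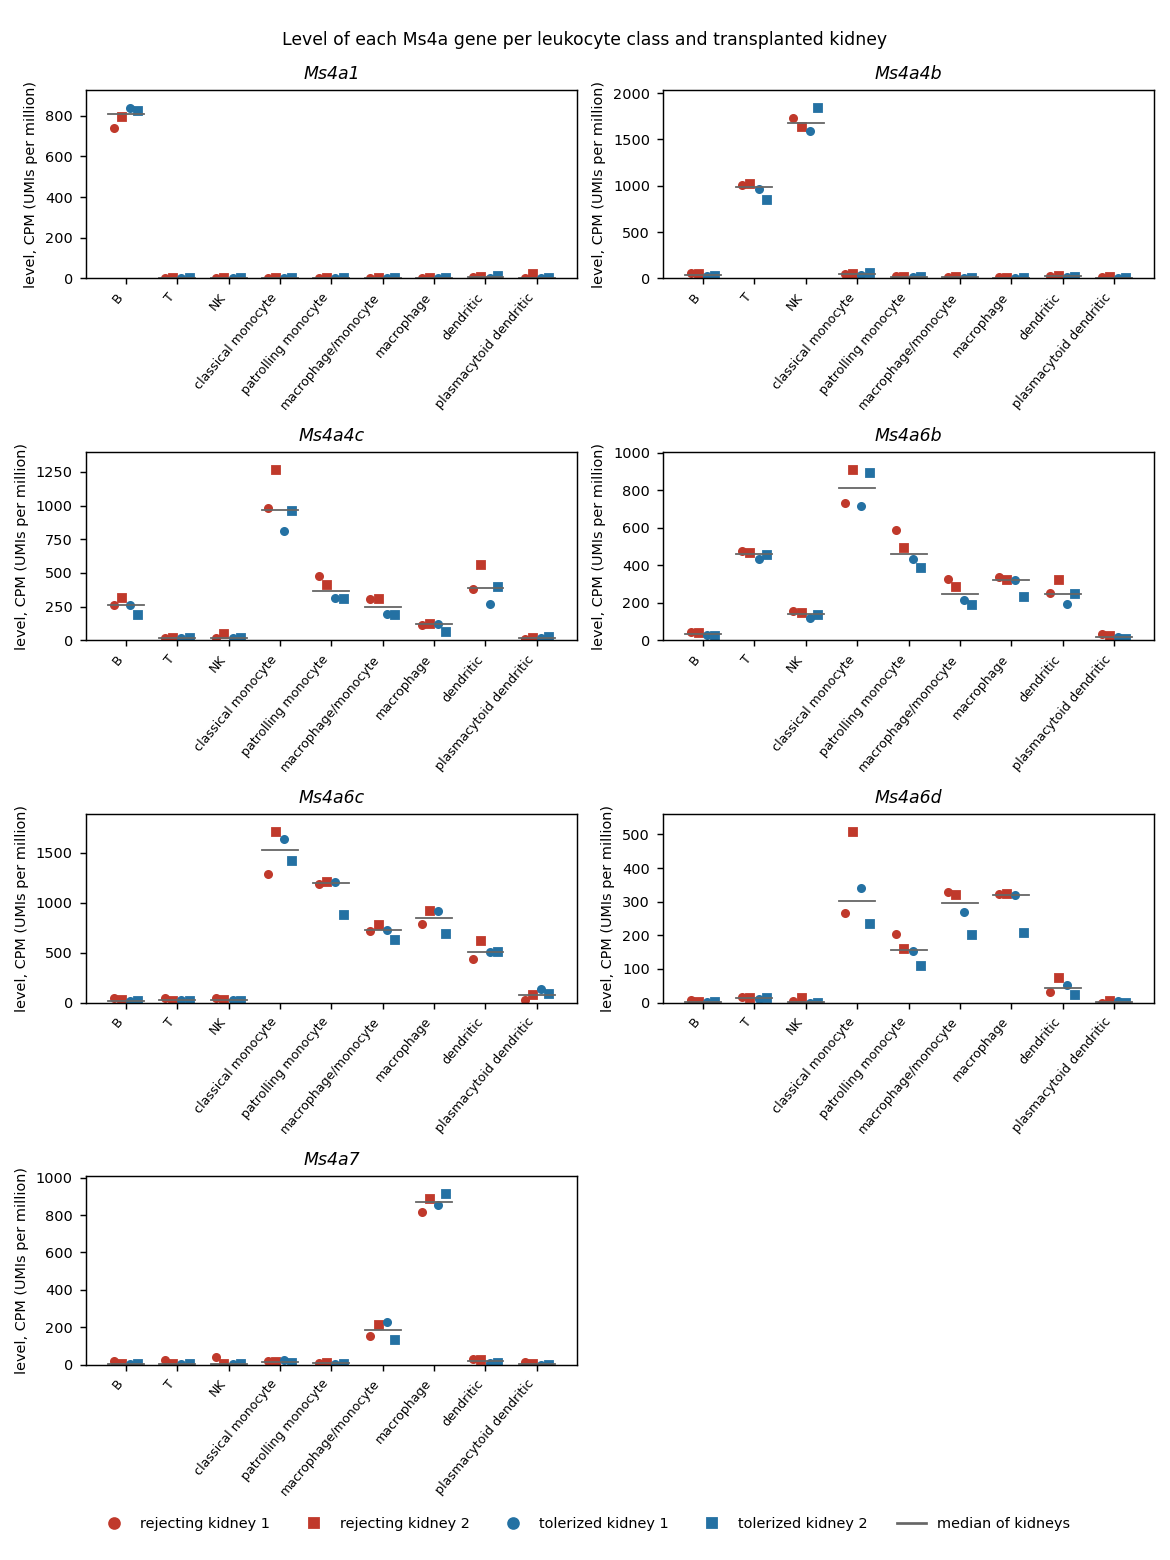
Level of each gene in CPM (linear axis from 0) in 9 leukocyte classes, with 1 point per transplanted kidney and a line at the median of the 4 kidneys. Ms4a1 stands out in B cell-like cells (737 to 839 CPM), Ms4a4b in NK and T cell-like cells, and Ms4a7 in macrophage-like cells (816 to 914 CPM). The others are spread over several myeloid classes, with Ms4a6b also in T cell-like and Ms4a4c also in B cell-like cells.

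**Figure D2:**
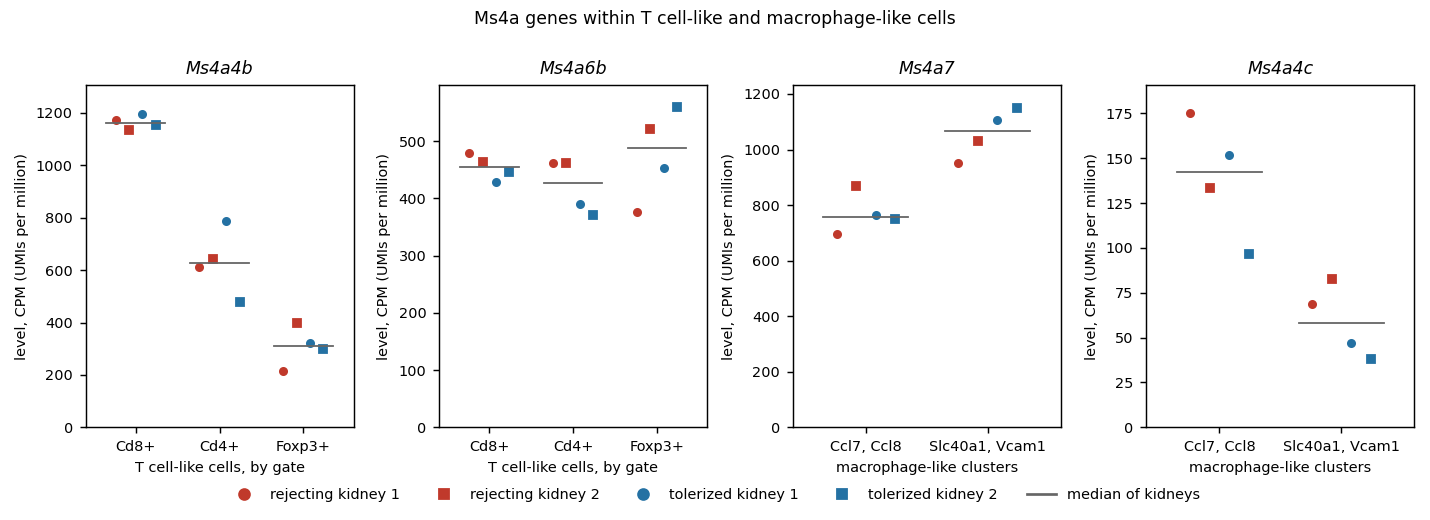
Level in CPM (linear axis from 0) of Ms4a4b and Ms4a6b in 3 gates of T cell-like cells, and of Ms4a7 and Ms4a4c in the 2 largest macrophage-like clusters, with 1 point per transplanted kidney and a line at the median. Ms4a4b falls from Cd8+ (1133 to 1195 CPM) to Foxp3+ cells (215 to 398 CPM), whereas Ms4a6b does not separate the gates.

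Likeness of pattern was measured by Pearson's r of log2(CPM + 10) over 36 points (9 classes in 4 kidneys) among 10616 genes. The points share kidneys, libraries, and depth, and the classes were set from marker genes, so that r is a description. Ms4a1 was most like Cd79a (r = 0.994) and Ebf1 (0.9904), which are B cell markers used to name the class, and Fcer2a (0.989), the low-affinity IgE receptor. Ms4a4b was most like Il2rb (0.976), Sh2d1a (0.973), and Il18r1 (0.970), and Ms4a7 most like C1qc (0.972, a marker used here), C3ar1 (0.968), and Vcam1 (0.966). Ms4a6c was closest to Pid1 (0.978), Lrrc25 (0.978), and Igsf6 (0.971), and Ms4a6d to Tgfbi (0.983), Fcgr1 (0.974, a marker used here), and Myof (0.966). The nearest genes to Ms4a4c and Ms4a6b were less close, namely Samhd1 (0.891), Cd40 (0.870), and Mcl1 (0.869) for the former and Lcp2 (0.921), Mapkapk3 (0.913), and Sh3bp1 (0.875) for the latter. Within the family, Ms4a6c and Ms4a6d were the most alike pair (0.916). Ms4a4b and Ms4a4c had r = -0.50.

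The rest of the family was nearly silent apart from 4 genes. Of the other 12 Ms4a genes, 6 had no UMI in 11 leukocyte classes of the transplanted kidneys and 2 had between 1 and 50. Ms4a2 was found in mast cell or basophil-like cells at 518, 652, 602, and 594 CPM, from 41, 27, 37, and 4 cells. Ms4a8a was highest in classical monocyte-like cells (72.6, 86.7, 53.6, and 61.2 CPM), Ms4a4a had 19.7 to 33.0 CPM in patrolling monocyte-like cells, and Ms4a14 was found in macrophage-like cells (4.92 to 11.7 CPM). Tmem176a and Tmem176b, distant relatives of the family, were highest in macrophage-like cells (medians of 751 and 854 CPM) and dendritic cell-like cells (623 and 585 CPM).

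Rejecting and tolerized kidneys were then compared within each class, to ask whether the family differed with the fate of the graft. UMIs were summed per kidney and class and tested with edgeR's quasi-likelihood test, with 2 kidneys per group, a false discovery rate (FDR) over all genes tested in the class, and a threshold of 0.05. Levels in this comparison are CPM on TMM-normalized library sizes, and fold changes are log2(rejecting/tolerized) ± SE. Of the pairs formed by the 7 genes and 7 classes, 38 passed the filter on low counts (5 genes in B, 3 in NK, and 6 in each other class), and 0 of these 38 were called. The p-values measure only the spread between these kidneys, with the spread of each gene moderated by that of the other genes tested in the class.

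The background of calls was as low. Over all genes tested, 0% were called in B, T, monocyte, macrophage, macrophage/monocyte, and dendritic cell-like cells, and 0.099% (5 of 5048) in NK cell-like cells, with 0.0792% higher and 0.0198% lower in rejecting kidneys. At an unadjusted p under 0.05, 5.62% of genes passed in B cell-like cells, 8.21% in T, 6.85% in NK, 6.87% in monocyte, 5.19% in macrophage, 7.23% in macrophage/monocyte, and 4.96% in dendritic cell-like cells. DESeq2 called 10 to 29 genes per class, none of them a member of the family. At an unadjusted p under 0.05, 8 of the 38 pairs passed, all higher in rejecting kidneys, and 31 of the 38 fold changes were positive. Over all genes tested, the median log2 change per class lay between -0.0075 (T) and 0.0047 (macrophage). Several of the 8 pairs concern a gene at a low level, outside the class where it was highest. The pairs share kidneys and cells and are not independent.

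In 14 of the 38 pairs both rejecting kidneys lay above both tolerized kidneys, and in 2 they lay below. In B cell-like cells this held for 3 members above and 1 below, where 35.2% of all genes did not overlap (17.5% higher and 17.7% lower in rejecting kidneys). T cell-like cells had 1 above and 1 below, against 40.1% of all genes (20.2% higher and 20% lower). NK cell-like cells had 1 above and 0 below, against 38.4% (19.8% and 18.6%). That member was Ms4a6c, with 11, 8, 11, and 9 UMIs. Only its levels in the rejecting kidneys reached the filter on low counts, so that its place above is no evidence of a difference. It is counted among the 38 pairs and the 14. The shares of members rest on few genes, namely 5 in B, 6 in T, and 3 in NK cell-like cells. The share in B cell-like cells was above that of all genes, and so were the shares in monocyte and macrophage/monocyte-like cells, given next. Monocyte-like cells had 3 above and 0 below, against 37.1% (18.4% and 18.7%), and macrophage/monocyte-like cells had 4 above and 0 below, against 36.1% (17.9% and 18.1%). Macrophage-like cells had 0 of either kind, against 34.8% (17.2% and 17.6%), and dendritic cell-like cells had 2 above and 0 below, against 32.7% (16.5% and 16.2%). In each of the monocyte, macrophage/monocyte, macrophage, and dendritic cell-like classes 6 members were tested, so that their shares rest on few genes as well.

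Ms4a1, Ms4a4b, and Ms4a7 were not called in the classes where they were highest. Ms4a1 in B cell-like cells had 731, 751, 871, and 917 CPM, a log2 change of -0.27 ± 0.24 (95% interval -0.81 to 0.26, edgeR FDR = 0.96). The groups did not overlap, with rejecting kidneys lower, as for 17.7% of the genes tested in B cell-like cells. Without the cluster that holds the naive cells, the change was -0.12. Ms4a4b in NK cell-like cells had 1765, 1636, 1687, and 2128 CPM, a log2 change of -0.17 ± 0.25 (95% interval -0.71 to 0.37, edgeR FDR = 0.91), and in T cell-like cells it was 0.04 ± 0.24 (95% interval -0.49 to 0.57, edgeR FDR = 0.98). Without the T cell clusters of low UMI count, that value was -0.12. Ms4a7 in macrophage-like cells had 804, 858, 855, and 962 CPM, a log2 change of -0.13 ± 0.17 (95% interval -0.53 to 0.28, edgeR FDR = 0.98), with overlapping groups. Ms4a6d in these cells changed by 0.23 ± 0.22 and Ms4a6c by 0.01 ± 0.19. With 2 kidneys per group, changes inside these intervals are not excluded, but the intervals are no limit of detection. A larger change, that of Ms4a7 in T cell-like cells (log2 change of 2.59, edgeR FDR of 0.37), was not called either.

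Ms4a4c was higher in both rejecting kidneys in monocyte-like cells (classical and patrolling together), but it was not called. All 6 members tested in this class had positive fold changes, and 3 of them, Ms4a4c included, lay above without overlap. In monocyte-like cells Ms4a4c had 772, 913, 607, and 549.6 CPM, a log2 change of 0.54 ± 0.20 with an unadjusted p of 0.027 and an edgeR FDR of 0.68. In macrophage/monocyte-like cells it had 301, 288, 193, and 203 CPM, a log2 change of 0.57 ± 0.18 with an unadjusted p of 0.011 and an edgeR FDR of 0.47. In both classes the groups did not overlap, as for 18.4% and 17.9% of the genes tested there that were higher in rejecting kidneys. The monocyte-like sums held an unequal mix, with 252, 269, 305, and 61 classical and 306, 287, 318, and 171 patrolling cells. Ms4a4c was higher in the former (809 to 1266 CPM) than in the latter (304 to 479 CPM). In each of these taken alone, its levels given above were also higher in both rejecting kidneys. The part of the mix in the change was not tested. Ms4a6b also had a positive value in macrophage/monocyte-like cells (321, 268, 214, and 206 CPM, log2 change of 0.49 ± 0.19, unadjusted p of 0.031, edgeR FDR of 0.63). In T cell-like cells, where Ms4a4c was low, its values were 15.4, 16.0, 18.1, and 21.3 CPM and its log2 change -0.32 ± 0.24 (edgeR FDR of 0.74), with rejecting kidneys lower without overlap, as for 20% of the genes. Without the clusters of low UMI count the log2 change was -0.31. The share of classical monocyte-like cells with an Ms4a4c UMI, thinned to 1000 UMIs, was 62.4% and 71.0% in the rejecting kidneys, against 47.5% and 57.4% in the tolerized ones (exact 2-sided permutation test over kidneys, p = 0.333, the smallest that 2 against 2 can give). Unthinned, it was 94.8%, 98.1%, 93.1%, and 100%, against 0.133% to 1.46% in proximal tubule-like cells. The shares in the other members' highest classes gave exact permutation p-values between 0.333 and 1. The mean thinned shares were lower in rejecting kidneys for Ms4a6c (72.8% against 79.8%), Ms4a4b (73.0% against 78.3%), and Ms4a1 (48.1% against 49.0%). They were higher for Ms4a6b (54.5% against 48.5%), Ms4a6d (27.3% against 19.4%), and Ms4a7 (50.4% against 49.1%).

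The fold changes farthest from 0 concerned genes outside the class of their highest level. Ms4a7 in T cell-like cells had 21.2, 4.24, 2.67, and 1.20 CPM, a log2 change of 2.59 ± 0.70 with an unadjusted p of 0.0042 and an edgeR FDR of 0.37. Rejecting kidney 1 set this value, and without it the log2 change was 1.03. Without any one of the other 3 kidneys the log2 change was 2.24 to 3.41. In these fits the lone kidney is assumed to vary like the others. Without the clusters of low UMI count the log2 change was 2.02. The summed level of the 10 macrophage markers in T cell-like cells was 1064, 214, 158, and 78.5 CPM, in the same order of kidneys, and 0, 0, 0, and 1 of the 10 markers had no UMI. Ms4a7 amounted to 2.14%, 2.01%, 1.64%, and 1.43% of that sum, against 1.84%, 1.98%, 1.81%, and 2.26% in macrophage-like cells. The part of macrophage RNA in this result was not tested.

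Ms4a7 in dendritic cell-like cells followed the same order, at 28.1, 21.96, 10.3, and 6.55 CPM, with a log2 change of 1.54 ± 0.39, an unadjusted p of 0.0033, and an edgeR FDR of 0.46. The macrophage markers summed to 878, 749, 449, and 259 CPM in these cells, with 0, 0, 0, and 1 markers at 0. Ms4a7 was 3.19%, 3.14%, 2.25%, and 2.30% of that sum. Ms4a4b in macrophage/monocyte-like cells had 16.6, 14.3, 4.23, and 7.61 CPM, a log2 change of 1.498 ± 0.37 with an unadjusted p of 0.0028 and an edgeR FDR of 0.32. The 12 T cell markers summed to 158, 60.9, 17.2, and 26.6 CPM there, with 0, 0, 1, and 2 markers at 0. Ms4a4b was 10.7%, 24.7%, 24.6%, and 26.2% of that sum, against 9.96%, 8.47%, 9.04%, and 8.52% in T cell-like cells. In B cell-like cells, Ms4a6c had 43.6, 21.6, 13.3, and 12.8 CPM (log2 change of 1.28 ± 0.42, unadjusted p of 0.013, edgeR FDR of 0.68) and Ms4a4b had 55.4, 43.2, 28.6, and 32.5 CPM (log2 change of 0.69 ± 0.29, unadjusted p of 0.042, edgeR FDR of 0.86). Leaving out 1 kidney at a time gave log2 changes of 0.72 to 1.72 for Ms4a6c in B cell-like cells, the last without rejecting kidney 2. The lone kidney of such a fit has no spread of its own. Without the cluster that holds the naive cells, the changes of Ms4a6c and Ms4a4b were 1.051 and 0.75. With doublets kept, that of Ms4a4b turned to -0.17. The macrophage markers summed to 1411, 812, 487, and 2264 CPM in B cell-like cells, an order that differs from that of Ms4a6c. Ms4a6c amounted to 3.12%, 2.81%, 2.63%, and 0.507% of that sum. In macrophage-like cells it was 1.78%, 2.03%, 1.94%, and 1.70%. The T cell markers summed to 494, 141, 39.1, and 82.5 CPM in B cell-like cells. Ms4a4b was 11.3%, 32.4%, 70.5%, and 35.4% of that sum. Whether RNA of other cells takes part in these values was not tested.

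**Figure D3:**
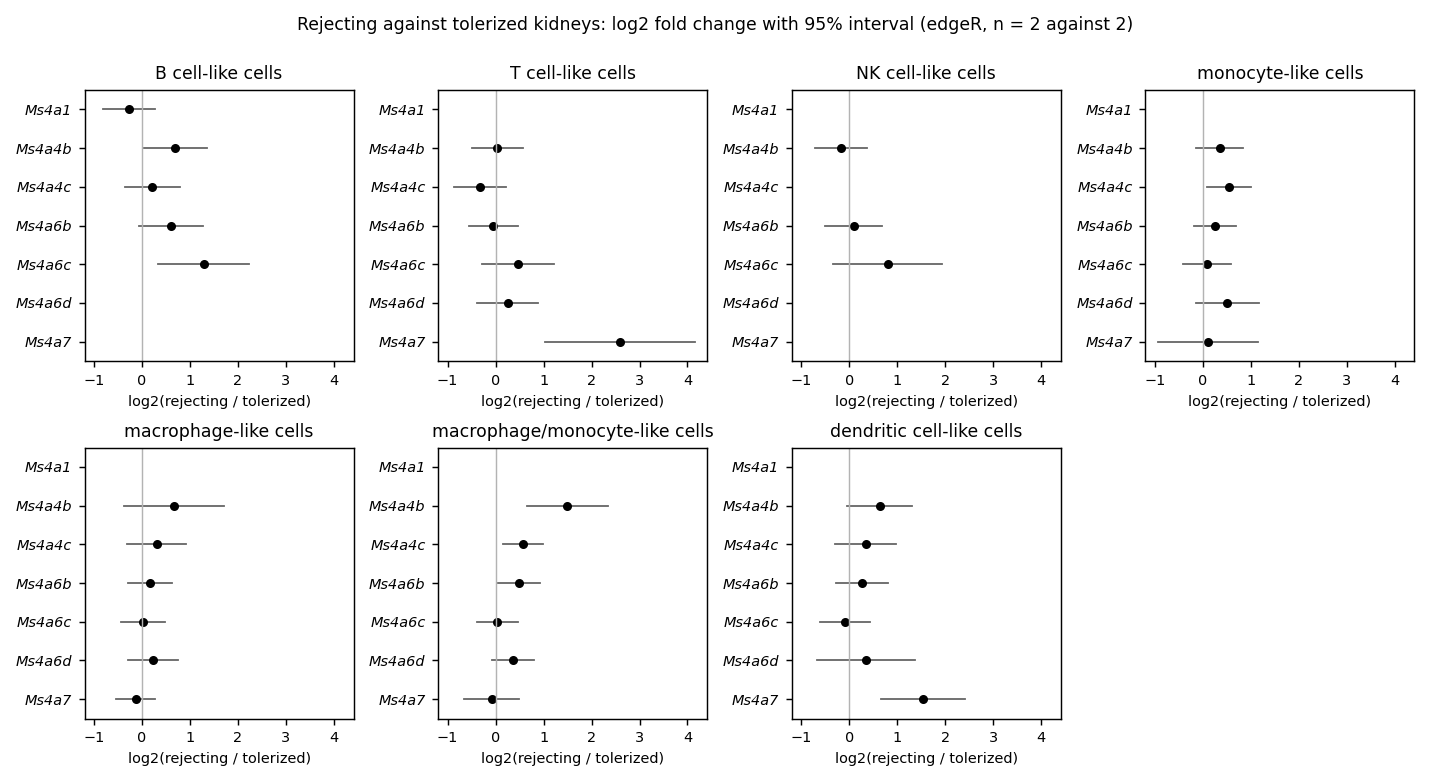
Fold change of each tested gene as log2(rejecting/tolerized), with points at the edgeR estimate and lines over its 95% interval, in 1 panel per class (n = 2 against 2 kidneys). None was called over all genes tested, and the values farthest from 0 are Ms4a7 in T cell-like (2.59) and dendritic cell-like cells (1.54) and Ms4a4b in macrophage/monocyte-like cells (1.498).

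**Figure D4:**
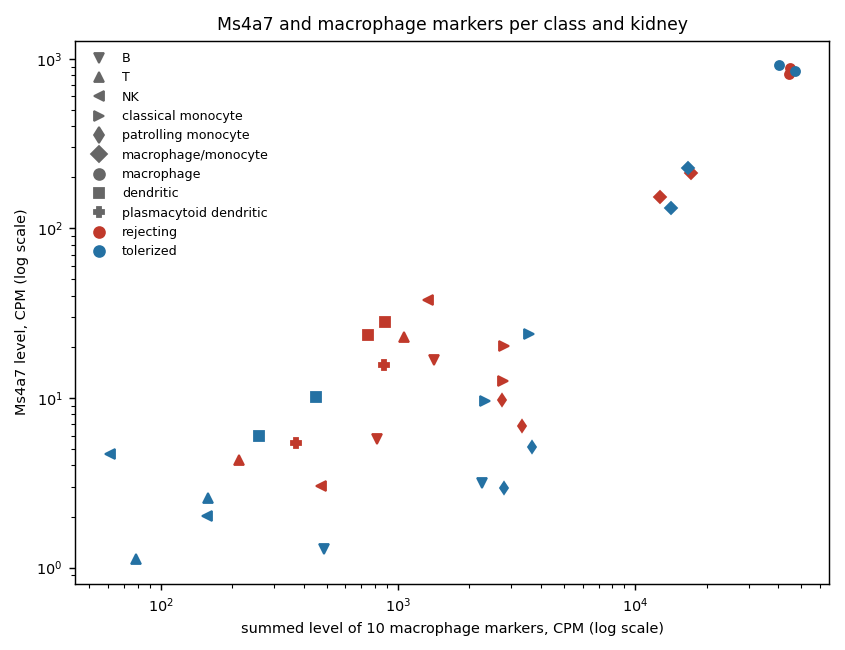
Level of Ms4a7 against the summed level of the 10 macrophage markers, both in CPM on log axes, with 1 symbol per class and kidney, colored by group. The 2 plasmacytoid dendritic cell-like sums of tolerized kidneys have no Ms4a7 UMI and are not drawn. T and dendritic cell-like points of rejecting kidneys lie higher on both axes than those of tolerized kidneys.

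No gene of the pathway lists was called. Of the 11 genes of the B cell receptor complex and its coreceptors, all were tested in B cell-like cells and 0 were called, with a median log2 change of -0.13 against -0.01 over all genes tested there. The median over the 5 family members tested in these cells was 0.60, from Ms4a1 at -0.27, Ms4a4c at 0.21, Ms4a6b at 0.60, Ms4a4b at 0.69, and Ms4a6c at 1.28. Of these, Ms4a6b, Ms4a4b, and Ms4a6c were low in B cell-like cells, at 12.8 to 55.4 CPM. Cd79a, the signaling chain of the receptor, changed by -0.16 ± 0.23 (edgeR FDR of 0.97), and Cd81, a tetraspanin of the coreceptor, by -0.67 ± 0.28 (unadjusted p of 0.040, edgeR FDR of 0.86). Tnfrsf18, which encodes GITR, changed by -0.32 ± 0.22 in T cell-like cells, and Trem2, a myeloid lipid receptor, by -0.19 ± 0.24 in macrophage-like cells, neither called. In macrophage-like cells the members' median was 0.20 against 0.00 over all genes, and in T cell-like cells 0.14 against -0.01. Ms4a8a in monocyte-like cells had 47.1, 57.1, 33.7, and 28.6 CPM (log2 change of 0.72 ± 0.23, unadjusted p of 0.011, edgeR FDR of 0.60). Its level was higher in classical (53.6 to 86.7 CPM) than in patrolling monocyte-like cells (5.13 to 13.6 CPM). The part of the unequal mix of these cells was not tested.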

How the data were processed

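Kidney cells were profiled by droplet single-cell RNA sequencing, with 1 library from each of 6 kidneys. The authors made the deposited counts, raw UMI counts per gene and cell, with Cell Ranger (bcl2fastq and mm10 in the submitters' processing notes, and 3.0.1 in the headers of the transplanted matrices). Barcodes were dropped below 500 UMIs or 250 genes, or above 50% UMIs of mitochondrial genes. As doublets, those removed had the highest Scrublet scores, to 0.8% per 1000 barcodes, since the caller's own threshold marked only 4 cells in each naive library. Cells were clustered in 2 steps with scanpy 1.11.5 and leidenalg 0.10.2 (2500 variable genes without Ms4a, mitochondrial, and ribosomal protein genes, 40 components, 20 neighbours, resolution 1.5). A cluster was called X-like when at least 3 markers of a list outside the family were found in at least 10% of its cells and at 2 times the mean, and stayed unnamed when its leading genes held as many markers of another class.

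UMIs were summed per kidney and class with at least 20 cells. The sums were tested with edgeR 4.0.16 (filterByExpr, TMM, quasi-likelihood) in R 4.3.3, with Benjamini-Hochberg adjustment over all genes tested. DESeq2 1.42.0, other filters and clusterings, and leaving out each kidney were the alternatives. The scripts were tested on simulated counts with 200 changed genes. Shares of cells were compared after thinning to 1000 UMIs. The limit for a count of 0 was 3 UMIs and covers counting error only. The named genes are all members and, for likeness, the genes with the highest correlation. Members and lists were chosen with earlier results of these data known. Libraries held 34874702 to 96803926 UMIs.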

Additional observations from a re-analysis of the deposited data

Results flagged for a closer look

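Ms4a4c had changes of opposite sign in different classes, none of them called. Its log2(rejecting/tolerized) was -0.32 in T cell-like cells, with both rejecting kidneys below both tolerized kidneys, and 0.54 in monocyte-like and 0.57 in macrophage/monocyte-like cells, with both rejecting kidneys above. In T cell-like cells it was -0.31 without the clusters of low UMI count. The monocyte-like sums held an unequal mix of classical and patrolling cells between kidneys. The difference between classes was not tested.

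Clusters that could not be named carried the family as well. A cluster of 786 cells led by S1pr1, Il7r, Lef1, and Tcf7 was best matched by the T cell markers but lies outside the T cell-like class. It had a median of 1936 CPM of Ms4a4b and 665.8 CPM of Ms4a6b over the 4 transplanted kidneys. A cluster led by S1pr1, Hbb-bs, and Tcf7, with 27 and 36 cells of the naive kidneys and 136 of tolerized kidney 2, had medians of 1441 CPM of Ms4a4b and 656.6 CPM of Ms4a6b. In a cluster of 130 naive cells led by Mmp13 and Mmp12, the medians were 103.7 CPM of Ms4a6b, 270.3 CPM of Ms4a6c, and 568.1 CPM of Ms4a7. In a cluster of 78 naive cells led by Ifitm6, Ear2, and Fn1, they were 255.1 CPM of Ms4a4c, 368.6 CPM of Ms4a6b, and 948.6 CPM of Ms4a6c. In the cluster of 110 cells of rejecting kidney 2 and tolerized kidney 2 described above, the median of Ms4a1 was 69.8 CPM. Each of these medians lies above the level that 3 UMIs would give.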

How the results depend on the processing

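No setting changed the finding of 0 members called except the filter on low counts and leaving out 1 kidney. Without the filter, edgeR called 121 genes in B, 89 in T, 50 in NK, 214 in macrophage, 233 in macrophage/monocyte, and 131 in dendritic cell-like cells, and 1 member each in T (Ms4a7, FDR of 0.020), macrophage/monocyte (Ms4a4b, 0.0091), and dendritic cell-like cells (Ms4a7, 0.026). Such fits tested every gene with a UMI in the class. The share called among all those genes is not given here, so that the members called cannot be set against a background. DESeq2 called 14, 29, 10, 22, 25, 28, and 21 genes in B, T, NK, monocyte, macrophage, macrophage/monocyte, and dendritic cell-like cells, and 0 members. With doublets kept, 1 gene was called in B and 0 in NK cell-like cells. In NK cell-like cells (5 genes), 1 was called with at least 1000 UMIs per cell, 3 with at most 20% mitochondrial UMIs, and 11 at resolution 0.8. In macrophage-like cells, 1 was called at resolution 0.8 and 1 without the cluster of low UMI count. With the replicate block, 44 genes were called in NK cell-like cells and 0 members in any class. The numbers were not taken to pair kidneys, since same-numbered deviations correlated at -0.11 to 0.0075. The study names separate experiments behind its samples, but the labels tie no replicate number to an experiment, so that the block adjusts for such a batch only if the numbers mark it.

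Leaving out 1 kidney gave 20 to 113 genes in B, 74 to 311 in T, 13 to 197 in NK, 0 to 196 in monocyte, 0 to 127 in macrophage, 6 to 139 in macrophage/monocyte, and 7 to 40 in dendritic cell-like cells, and 0 to 1 members in B and in T cell-like cells. The lone kidney is then assumed to vary like the others. Of 152 such fits of a member, 127 kept direction and side of the threshold and 21 changed sign. The ranges for those that did were, for Ms4a4b, -0.34 to 0.000376 (NK) and -0.0431 to 0.15 (T). For Ms4a4c the range was -0.0245 to 0.79 (macrophage). For Ms4a6b they were -0.0578 to 0.25 (NK), -0.0874 to 0.0145 (T), and -0.0145 to 0.39 (macrophage). For Ms4a6c they were -0.21 to 0.91 (T), -0.32 to 0.10 (dendritic), -0.15 to 0.20 (macrophage), -0.0191 to 0.0806 (macrophage/monocyte), and -0.0934 to 0.31 (monocyte). For Ms4a6d they were -0.30 to 1.12 (dendritic) and -0.0232 to 0.54 (macrophage), and for Ms4a7 -0.37 to 0.30 (macrophage/monocyte) and -0.32 to 1.25 (monocyte).

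Of 312 other fits, 299 kept direction and side and 10 changed sign. Ms4a4b became -0.17 in B cell-like cells with doublets kept. In T cell-like cells it became -0.0496 with at least 1000 UMIs, -0.0324 with at most 20% mitochondrial UMIs, -0.0293 with the unnamed clusters led by S1pr1, Il7r, and Tcf7, and -0.12 without the clusters of low UMI count. In NK cell-like cells Ms4a6b became -0.0749 with at most 20% mitochondrial UMIs and Ms4a6c -0.13 with doublets kept. Ms4a6c became -0.0572 in monocyte-like cells at resolution 0.8 and -0.0020 in macrophage-like cells with doublets kept, and Ms4a7 became 0.0032 in macrophage-like cells at resolution 0.8. At that resolution, 6 of 7 members kept the class of highest level, the exception being Ms4a6d. No cluster was named macrophage/monocyte-like at resolution 0.8, so that the results of this class could not be checked there. Without thinning, the difference in shares turned from 14.3 to -0.0661 percentage points for Ms4a4c, from 6.00 to -4.08 for Ms4a6b, and from 1.28 to -0.80 for Ms4a7. The causes were not tested. The fits that left out clusters or added unnamed ones were chosen after seeing the data.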
